A study of Mus musculus with 6 samples.

Results

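Fatty acid synthesis and malic enzyme genes form a set of 10 members, and all 10 were found among the 43432 gene identifiers of the colon count table. They are Srebf1, Acly, Acaca, Fasn, Me1, Elovl6, Scd1, Scd2, Thrsp and Pnpla3. The set was chosen by hand on pathway knowledge and with the stressed and resting values of these same libraries known, those of Me1 and Scd1 among them, so the values below are a description and the members' fold changes support no test. All 10 passed the filter on low counts that left 16119 genes. The stressed group holds 3 wild-type mice (10, 11 and 13), whose colon was removed immediately after restraint episode 3, each episode lasting 30 min. The resting group holds 3 wild-type mice (15, 17 and 19). Every record carries the same protocol note on restraint, so the groups were taken from the treatment label, with feeding, handling, age and sex not given in the sources used here. Each library is poly(A) RNA from the colon tissue of 1 mouse, a mixture of epithelium, muscle, nerve, immune cells and any attached fat. In such a mixture, fewer cells of a type and less RNA per cell cannot be told apart.

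De novo fatty acid synthesis turns citrate exported from mitochondria into palmitate. Acly (ATP-citrate lyase) releases acetyl-CoA, Acaca (acetyl-CoA carboxylase) makes malonyl-CoA from it, and Fasn (fatty acid synthase) joins these units with NADPH as the reductant, part of which comes from the cytosolic malic enzyme Me1. Elovl6 lengthens palmitate to stearate, and the desaturases Scd1 and Scd2 place a double bond in stearate to give oleate. Srebf1 encodes the transcription factor SREBP-1, which drives most of these genes in liver. Thrsp (Spot 14) is a thyroid hormone-responsive lipogenic protein, and Pnpla3 (adiponutrin) is a lipid droplet protein that is strongly induced by refeeding in mouse liver and fat. The pathway is most active in liver, fat and mammary gland, and in mouse intestinal epithelium Fasn is known to be needed for a normal mucin barrier.

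Promoter sequence is shown for the members whose stressed and resting values did not overlap and which had a single entry, or for Me1 the entry nearest the gene's annotated start, in the RefSeq table (GRCm38.p6, the assembly of mm10). Of the 10 members, 8 had an entry. Each stretch runs 5′ to 3′ on the gene's own strand from 250 bases before to 20 bases after the start. Capitals mark matches to 4 motifs searched on both strands: the sterol regulatory element TCACNCCAC, the palindromic E-box CACGTG, the CCAAT box and the antioxidant response element core TGACNNNGC.
Me1 promoter, chr9:86695895-86696164, minus strand: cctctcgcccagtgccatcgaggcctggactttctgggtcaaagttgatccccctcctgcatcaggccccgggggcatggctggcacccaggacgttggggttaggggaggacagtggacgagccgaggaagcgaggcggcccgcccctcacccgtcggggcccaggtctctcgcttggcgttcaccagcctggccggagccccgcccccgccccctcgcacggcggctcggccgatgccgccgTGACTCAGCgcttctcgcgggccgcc
Fasn promoter, chr11:120824528-120824797, minus strand: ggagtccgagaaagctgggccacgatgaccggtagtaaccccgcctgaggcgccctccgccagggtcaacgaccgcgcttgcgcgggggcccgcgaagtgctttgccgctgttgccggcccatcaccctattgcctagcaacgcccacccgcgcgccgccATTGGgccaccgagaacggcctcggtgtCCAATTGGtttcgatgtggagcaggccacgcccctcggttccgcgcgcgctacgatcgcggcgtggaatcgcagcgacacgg
Thrsp promoter, chr7:97417531-97417800, minus strand: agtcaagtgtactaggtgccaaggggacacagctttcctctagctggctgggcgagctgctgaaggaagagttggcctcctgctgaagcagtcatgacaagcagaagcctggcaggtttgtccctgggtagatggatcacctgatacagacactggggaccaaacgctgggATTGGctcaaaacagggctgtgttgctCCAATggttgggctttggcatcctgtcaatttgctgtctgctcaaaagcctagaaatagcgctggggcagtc
Pnpla3 promoter, chr15:84167566-84167835, plus strand: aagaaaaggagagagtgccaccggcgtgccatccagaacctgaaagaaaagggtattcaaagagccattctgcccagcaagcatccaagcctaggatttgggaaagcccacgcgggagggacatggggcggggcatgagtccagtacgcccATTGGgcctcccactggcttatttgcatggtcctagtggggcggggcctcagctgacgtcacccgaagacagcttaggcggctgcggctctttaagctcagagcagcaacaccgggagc
The Me1 stretch held the core TGACTCAGC from base -6 to base 3 relative to the start, a motif found in 11.1% of 32851 RefSeq promoter stretches of the same length. CCAAT boxes stood in the Fasn stretch (3 matches, of which the forward one at -62 overlaps the reverse one at -59), in the Thrsp stretch (at -79 and -52) and in the Pnpla3 stretch (at -99), and 35.4% of all stretches hold at least 1. Among the entries not shown, CCAAT matches also lay in Srebf1 entries at -166 and -30 and in a further Me1 entry at -208. No member stretch held the sterol regulatory element (1.14% of all stretches) or the E-box (6.57%) in these windows. These matches describe letters and were not tested as binding sites.

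The libraries held between 16425525 and 19819267 counts, with 6.65% to 7.29% of counts from mitochondrially encoded genes. All 10 colon epithelium markers were tested, 7 with higher and 3 with lower means in stressed colon and a median log2 fold change of 0.039. Their summed level was 29308 to 31267 CPM (counts scaled to a common library total) in stressed mice and 24886 to 27928 CPM in resting mice. Most of that gap came from the carbonic anhydrase gene Car1, at 12402 ± 752 CPM in stressed colon and 9049 ± 1471 CPM in resting colon, while the water channel gene Aqp8 was lower, at 59.7 ± 34.4 CPM in stressed colon and 125 ± 0.988 CPM in resting colon (SD, n = 3 each). Neither passed the edgeR threshold, and DESeq2 passed 1 marker of the list, against 0.329% of the genes to which it gave an adjusted p. Among 8 liver and pancreas markers, Cpa1 and Prss2 had 0 counts, Alb had 14 over all 6 libraries, and the elastase gene Cela1 was present at 31.5 ± 1.84 CPM in stressed colon and 36.1 ± 2.48 CPM in resting colon, without overlap (SD, n = 3 each). Among 10 skin and sebaceous markers, Awat1 and Mc5r had 0 counts, Krt5 had 8, and the highest, Krt10, had 297, with overlapping sums of 3.90 to 4.69 CPM in stressed mice and 3.54 to 4.70 CPM in resting mice.

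All 10 members had a higher mean in stressed colon than in resting colon. The median log2 fold change (stressed over resting) was 0.32 over the 10 members, against -0.0033 over all 16119 tested genes, of which 49.0% were above 0. The sizes spread widely. Thrsp, Pnpla3 and Scd1 stood more than 2-fold higher, Me1 1.51-fold, Fasn 1.30-fold and Scd2 1.2-fold, while Srebf1, Acaca, Acly and Elovl6 stood between 1.02- and 1.17-fold. By edgeR's quasi-likelihood test with Benjamini-Hochberg adjustment over all genes 1 member passed the threshold of 0.05, Me1, where 0.0310% of all tested genes passed. At an unadjusted p under 0.05 there were 6 members, all higher, against 6.92% of all genes in either direction and 3.52% in the higher direction. For 6 members (Me1, Scd1, Fasn, Thrsp, Pnpla3 and Srebf1) the lowest stressed value lay above the highest resting value, against 6.13% of all tested genes. DESeq2 passed 4 members (Me1, Scd1, Thrsp and Fasn), against 0.329% of the genes to which it gave an adjusted p. edgeR without the filter on low counts passed 5, against 0.588% of genes, and limma-voom passed 0, against 0.0186%. Since the set was picked with this contrast known, these counts are given beside their backgrounds without being read as a result.

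**Figure D1:**
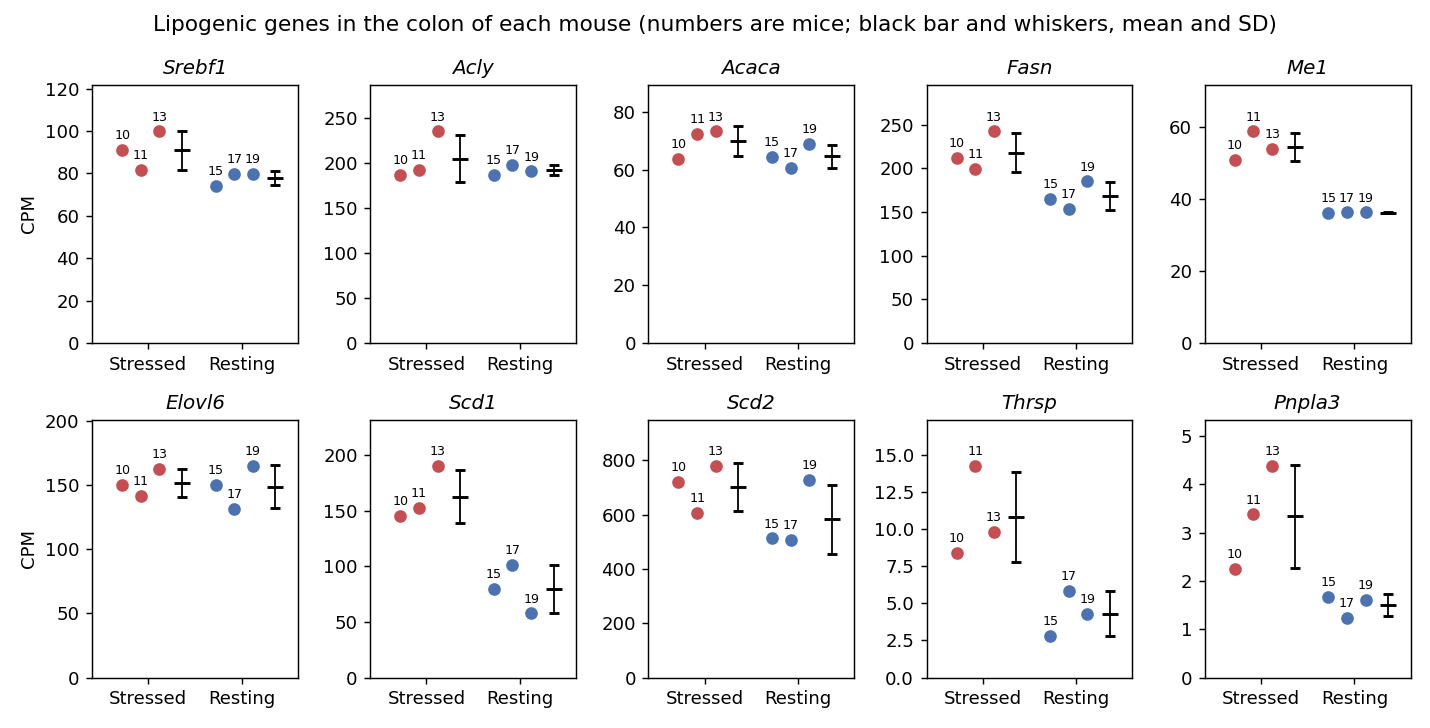
Level of each gene of the set in CPM (y axis, starting at 0) in stressed (left, red) and resting (right, blue) mice; points are single mice marked by number, and the black bar and whiskers are the mean and SD of 3 mice. The groups stand apart for Me1, Scd1, Fasn, Thrsp, Pnpla3 and Srebf1 and overlap for Acly, Acaca, Elovl6 and Scd2.

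Srebf1, the transcription factor of the set, measured 91.1, 81.6 and 99.8 CPM in stressed mice 10, 11 and 13, against 74.1, 79.9 and 79.7 CPM in resting mice 15, 17 and 19. The groups were separated by 1.66 CPM, between stressed mouse 11 and resting mouse 17, and they overlapped when library totals were used without TMM scaling. The log2 fold change was 0.22 ± 0.083 (SE, 95% interval 0.038 to 0.40). Its relative Srebf2, which drives cholesterol synthesis genes, had 0.29 ± 0.070, with 228 ± 12.5 CPM in stressed colon and 186 ± 6.32 CPM in resting colon (SD, n = 3 each).

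The first steps of the pathway differed little. Acly measured 187, 193 and 235 CPM in stressed mice 10, 11 and 13, against 187, 198 and 191 CPM in resting mice 15, 17 and 19. Only stressed mouse 13 lay above the resting range, and without it the log2 fold change of 0.094 became -0.017. Acaca measured 63.8, 72.2 and 73.2 CPM in stressed mice 10, 11 and 13, against 64.4, 60.6 and 68.8 CPM in resting mice 15, 17 and 19. The groups overlapped. The Acaca log2 fold change of 0.11 had a 95% interval of -0.066 to 0.29, which does not reach that of Scd1 (0.64 to 1.42).

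Fasn, which builds palmitate, measured 212, 199 and 242 CPM in stressed mice 10, 11 and 13. In resting mice 15, 17 and 19 it was at 166, 153 and 185 CPM. All 3 stressed mice lay above all 3 resting mice, by 13.9 CPM at the nearest. The log2 fold change was 0.38 ± 0.095 (95% interval 0.17 to 0.58).

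Me1, the source of cytosolic NADPH in the set, measured 51.0, 58.8 and 53.8 CPM in stressed mice 10, 11 and 13, against 36.1, 36.3 and 36.3 CPM in resting mice 15, 17 and 19. These values rest on 886 to 1079 counts in a stressed library and 604 to 656 in a resting one. The gap between the groups was 14.7 CPM, many times the spread of the resting mice, which lay closer together (coefficient of variation 7.25% in stressed and 0.274% in resting mice) than counting error alone would give. The log2 fold change was 0.59 (95% interval 0.43 to 0.75). The value ranged from 0.53 to 0.64 over the alternative settings, but the edgeR call held in only 1 of the 6 fits that left out a mouse, the fit without stressed mouse 11.

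Elovl6, the elongase of the set, measured 150, 142 and 163 CPM in stressed mice 10, 11 and 13, against 150, 132 and 165 CPM in resting mice 15, 17 and 19. The highest and the lowest of the 6 values were both from resting mice. The log2 fold change was 0.026 (95% interval -0.18 to 0.23), and it was below 0 without stressed mouse 13, without resting mouse 17 or with library totals.

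The desaturases Scd1 and Scd2 are neighbours on chromosome 19, and the mice ordered differently for each. Scd1 measured 145, 152 and 190 CPM in stressed mice 10, 11 and 13, against 79.5, 102 and 57.7 CPM in resting mice 15, 17 and 19. Every stressed mouse exceeded every resting mouse by at least 43.5 CPM, and the log2 fold change was 1.03 ± 0.17 (SE). Scd2 measured 722, 607 and 779 CPM in stressed mice 10, 11 and 13, against 513, 508 and 729 CPM in resting mice 15, 17 and 19. Resting mouse 19, the lowest of all for Scd1, was the second highest of all for Scd2, and the groups overlapped. The Scd2 log2 fold change was 0.27 (95% interval -0.046 to 0.58) and 0.47 without that mouse. Per kb of exon, Scd1 made up 18.3%, 21.9% and 21.4% of the Scd1 and Scd2 level in stressed mice 10, 11 and 13, against 14.8%, 18.3% and 8.12% in resting mice 15, 17 and 19. Thus Scd2 was the main desaturase transcript in every mouse, 3.56 to 4.46 times the Scd1 level per kb in stressed and 4.48 to 11.3 times in resting mice. The smaller family members were low: Scd3 had 3 counts over all libraries, and Scd4 was at 0.846 ± 0.0803 CPM in stressed colon and 0.580 ± 0.126 CPM in resting colon (SD, n = 3 each).

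The members with the largest fold changes were the least abundant. Thrsp measured 8.41, 14.2 and 9.78 CPM in stressed mice 10, 11 and 13, against 2.81, 5.81 and 4.31 CPM in resting mice 15, 17 and 19. This rests on 161 to 261 counts in a stressed library and 47 to 99 in a resting one. The groups did not overlap, and the log2 fold change was 1.32 (95% interval 0.74 to 1.91). Pnpla3 measured 2.26, 3.38 and 4.38 CPM in stressed mice 10, 11 and 13, against 1.67, 1.23 and 1.6 CPM in resting mice 15, 17 and 19, from 44 to 72 and 21 to 29 counts. The groups did not overlap, by 0.583 CPM at the nearest, and the log2 fold change was 1.14 (95% interval 0.50 to 1.78).

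**Figure D2:**
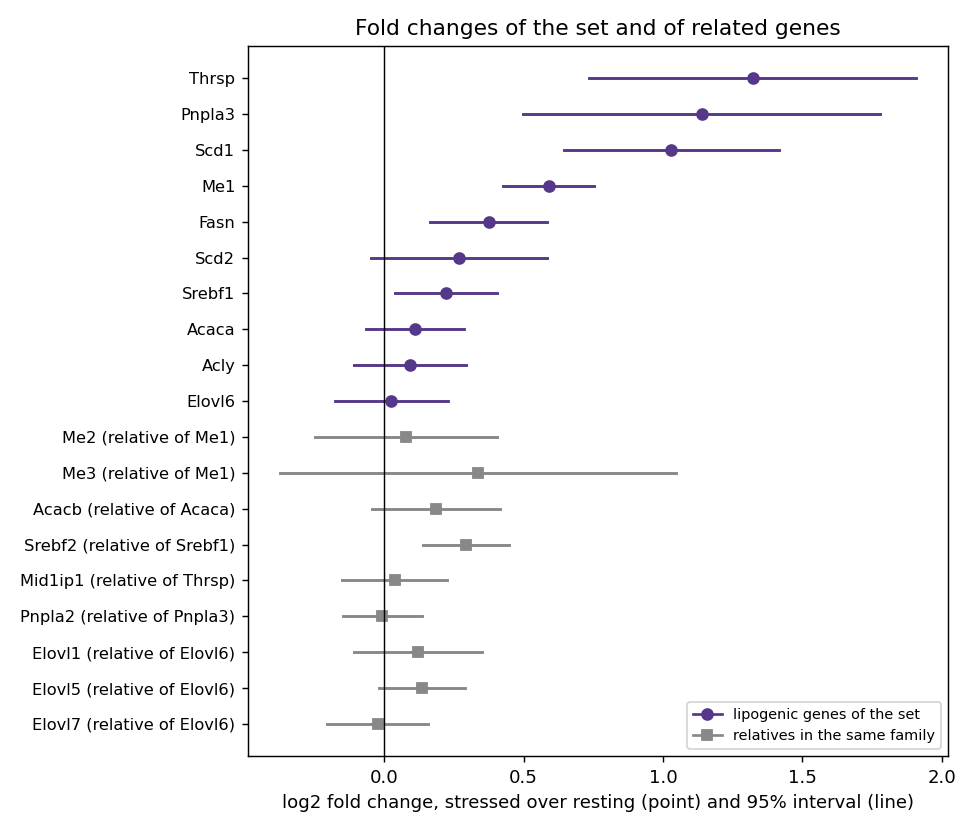
Log2 fold change of stressed over resting colon (x axis) with its 95% interval for each gene of the set (circles) and for family relatives of its members (squares). Thrsp, Pnpla3, Scd1, Me1, Fasn and Srebf1 have intervals above 0, and of the relatives only Srebf2 does.

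Relatives of the members, chosen after their values were seen, had log2 fold changes from -0.023 to 0.34, some below and some above that of their member. The mitochondrial malic enzymes Me2 and Me3 had log2 fold changes of 0.079 (95% interval -0.25 to 0.41) and 0.34 (-0.37 to 1.05), both with overlapping groups, beside 0.59 for Me1. The Thrsp relative Mid1ip1 had 0.038 (-0.15 to 0.23), and the Pnpla3 relative Pnpla2, the main triglyceride lipase of many tissues, had -0.0058 (-0.15 to 0.14). Acacb, the carboxylase at the mitochondrial surface, had 0.19 (-0.043 to 0.42), beside 0.11 for Acaca. The elongases Elovl1, Elovl5 and Elovl7 had 0.12, 0.13 and -0.023, beside 0.026 for Elovl6. Srebf2 had 0.29, beside 0.22 for Srebf1. The differences between members and relatives were not tested.

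On the scale of CPM per kb of exon, which allows levels to be compared between genes, Scd2 led with 129 ± 16.1 in stressed and 107 ± 23.1 in resting mice (SD, n = 3 each). In resting mice Acly (36.4 ± 1.08) and Elovl6 (23.1 ± 2.58) followed. Scd1 (16.3 ± 4.48), Fasn (15.3 ± 1.47) and Srebf1 (13.8 ± 0.581) had overlapping values in neighbouring places, and Me1 (9.41 ± 0.0258) lay below them. Acaca (3.78 ± 0.240), Thrsp (1.97 ± 0.686) and Pnpla3 (0.971 ± 0.153) closed the order. In stressed mice Scd1 stood at 33.2 ± 4.90 per kb, above Elovl6 at 23.6 ± 1.65, with no overlap between those values. In both groups the cytosolic Me1 (14.2 ± 1.03 in stressed, 9.41 ± 0.0258 in resting) was below the mitochondrial Me2 (23.5 ± 3.01 in stressed, 22.2 ± 5.0 in resting) and well above Me3 (0.253 ± 0.119 in stressed, 0.201 ± 0.0281 in resting). Thrsp was far below its relative Mid1ip1 (37.2 ± 3.89 in stressed, 36.2 ± 1.58 in resting). With the longest transcript in place of all exons, Acaca stood at 6.79 and Srebf1 at 18.1 per kb in resting mice, which puts Srebf1 above Fasn (16.7) and Scd1 (16.5).

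**Figure D3:**
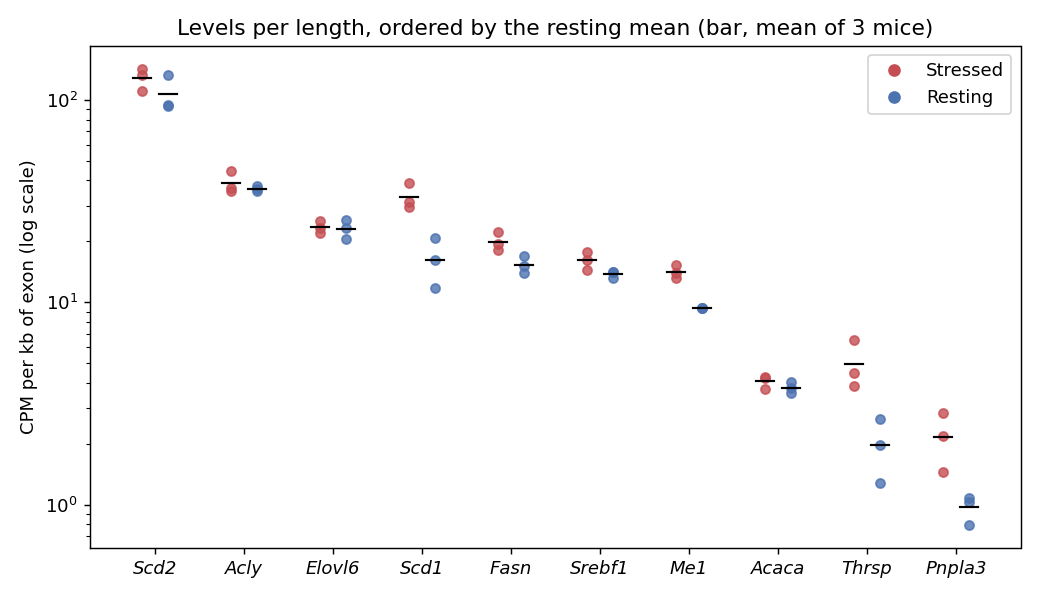
Level of each gene of the set per kb of exon (y axis, log scale, CPM per kb) in single stressed (left, red) and resting (right, blue) mice, with bars at the means of 3 mice, ordered by the resting mean. Scd2 is highest and Pnpla3 lowest in both groups, and Scd1 moves past Elovl6 in stressed mice.

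Individual mice did not order the members alike. Stressed mouse 13 had the highest stressed value for 8 members, the exceptions being Me1 and Thrsp, which were highest in mouse 11. Among resting mice, mouse 17 was highest for 5 members and lowest for the other 5. Resting mouse 19 was highest for 4, namely Fasn, Acaca, Elovl6 and Scd2. As a description over the 6 mice, the genes whose log2 CPM correlated most with Me1 among 11070 compared were Hexdc (Pearson r = 0.988), Col25a1 (0.987) and Syt6 (0.985). Those most like Scd1 were Eif2s3y (0.997), Auh (0.994) and Ptgis (0.991). For all 6 of these genes the stressed and resting values did not overlap, and the mice share library and group. Among the members compared, the one most like Me1 was Thrsp (r = 0.917), followed by Scd1 (0.878), and Elovl6 was least like it (0.0756). Pnpla3 fell below the 5 CPM needed and was not compared.

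Several members are also strongly expressed in fat, and transcripts of adipocytes moved in part with them. All 15 listed adipocyte markers were tested and 14 had higher means in stressed mice, with a median log2 fold change of 0.28. None passed the edgeR threshold, and DESeq2 and limma-voom passed 0. At an unadjusted edgeR p below 0.05 there were 7 (6 of them higher), against 6.92% of all genes in either direction and 3.52% higher. Their summed level was 832, 899 and 649 CPM in stressed mice 10, 11 and 13, against 627, 821 and 670 CPM in resting mice 15, 17 and 19. The groups overlapped, and stressed mouse 13 lay below resting mice 17 and 19. Plin1, which coats fat cell droplets, was at 8.59 ± 0.863 CPM in stressed colon and 5.19 ± 0.448 CPM in resting colon, Retn at 7.05 ± 1.59 and 3.66 ± 0.819 CPM, and Adipoq at 19.4 ± 5.0 and 16.3 ± 3.57 CPM (SD, n = 3 each). Mouse 13 had the highest stressed level of Scd1, Fasn and Pnpla3 and the lowest stressed level of Adipoq and Cfd. Thrsp and Me1, in contrast, were highest in stressed mouse 11 and resting mouse 17, as was the marker sum. Among the resting mice, Scd1 was also highest in mouse 17. The resting Me1 values hardly differed, at 36.1 to 36.3 CPM. With an adipocyte score (the mean log2 CPM of the 15 markers) as a covariate, the log2 fold change was 1.11 for Scd1, 0.56 for Me1, 0.53 for Fasn, 1.56 for Pnpla3 and 0.95 for Thrsp. No member passed the threshold in that fit, against 0.0186% of all genes. That fit has 1 residual degree of freedom fewer. The part of fat in the members' differences was not tested beyond these values.

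Hoxa13, a homeobox gene of the distal gut chosen after its values were seen, measured 2.26, 1.80 and 0.608 CPM in stressed mice 10, 11 and 13, against 15.5, 11.6 and 1.82 CPM in resting mice 15, 17 and 19. Resting mice 15 and 17 were high, and the groups overlapped because resting mouse 19 lay within the range of the stressed mice. Hoxa9, Hoxa10 and Hoxa11 also had lower means in stressed mice with overlapping groups, at log2 fold changes of -1.37, -0.99 and -0.48, while Hoxd10 and Hoxd11 had 0.21 and 0.26. Scd1, Me1, Thrsp, Fasn, Srebf1 and Pnpla3 are the members without overlap, so every resting mouse lay below all 3 stressed mice for them. That holds for resting mouse 19 by the choice of these genes. The Scd2, Acaca and Acly levels of resting mouse 19 (729, 68.8 and 191 CPM) lay within the stressed range, and its Elovl6 level (165 CPM) lay above it. Whether the position of the tissue along the colon differed between the mice was not tested.

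**Figure D4:**
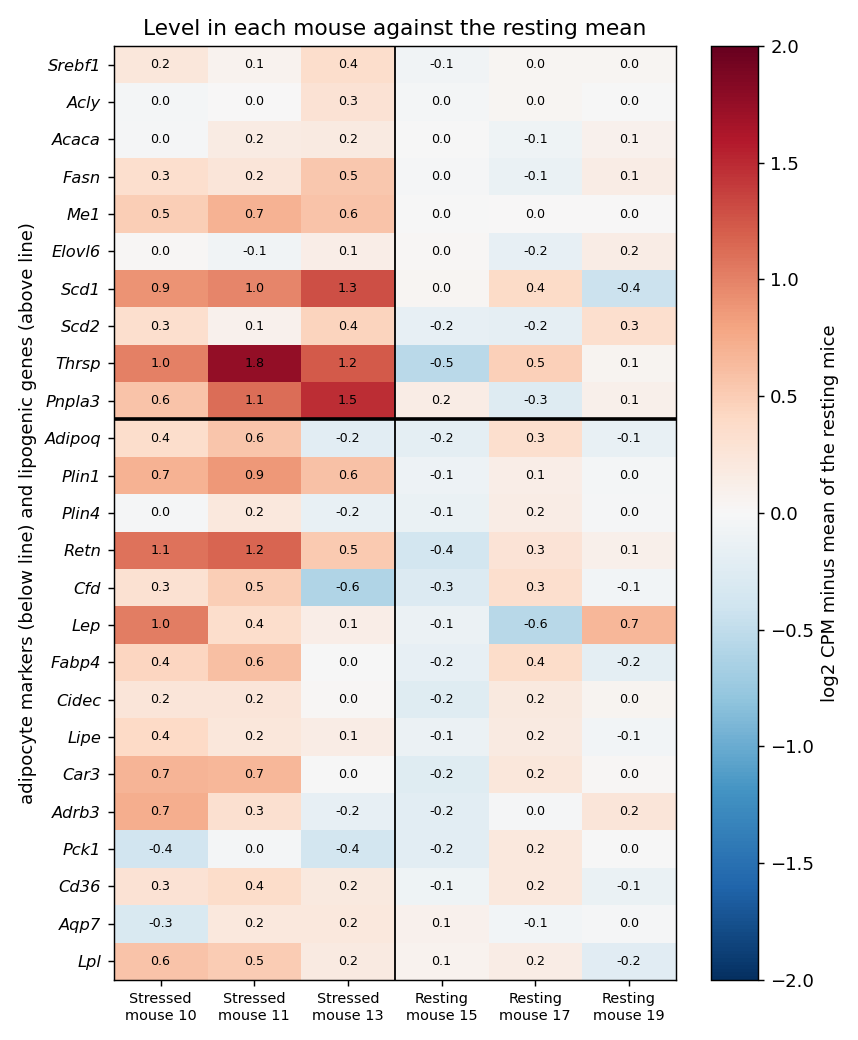
Deviation of log2 CPM from the mean of the 3 resting mice for each gene of the set (above the line) and each adipocyte marker (below it), in stressed (left) and resting (right) mice. Scd1, Thrsp, Pnpla3 and Me1 are raised in all 3 stressed mice, while most adipocyte markers are higher in stressed mice 10 and 11 than in stressed mouse 13.

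Other genes of fatty acid synthesis outside the set were tested in the same fit, and none passed the edgeR threshold in any of the 7 lists described here, nor with DESeq2 or limma-voom. The counts at an unadjusted p under 0.05 below stand beside 6.92% of all tested genes in either direction and 3.52% in the higher direction. Of 10 tested enzymes and carriers of fatty acid synthesis (12 listed), all 10 had a positive log2 fold change, with a median of 0.058, and 2 had an unadjusted p under 0.05. These were Slc25a1, the mitochondrial citrate carrier, at 125 ± 4.75 CPM in stressed colon and 109 ± 5.81 CPM in resting colon, and Aacs, acetoacetyl-CoA synthetase, at 89.5 ± 6.79 and 76.0 ± 6.56 CPM (SD, n = 3 each). The third by p was Oxsm, the mitochondrial ketoacyl synthase, with a log2 fold change of 0.27. Of 16 tested elongases, desaturases and their partners (19 listed), 13 were above 0 with a median of 0.063, and 0 had an unadjusted p under 0.05. Elovl5 (0.13), Hsd17b12 (0.12) and Scd4 (0.54) had the smallest p there.

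Of 17 NADPH-supplying and malate shuttle genes, 12 were above 0 with a median of 0.043, and 0 had an unadjusted p under 0.05. The mitochondrial carriers Slc25a10 (dicarboxylate) and Slc25a11 (malate and oxoglutarate) had log2 fold changes of 0.16 and -0.11, and the transhydrogenase gene Nnt had -0.41 at 27.1 ± 13.5 CPM in stressed colon and 36.3 ± 8.60 CPM in resting colon (SD, n = 3 each). The Nnt value was -0.90 without stressed mouse 10, -0.20 without resting mouse 17 or stressed mouse 13, and -0.96 with the adipocyte score. Of 20 regulators, 13 were above 0 with a median of 0.045, and 3 had an unadjusted p under 0.05, all higher. Beside Srebf2 these were Pparg, the nuclear receptor of fat cells that colon epithelium also expresses, at 194 ± 16.8 CPM in stressed colon and 159 ± 11.1 CPM in resting colon, and Insig1, which retains SREBP in the endoplasmic reticulum, at 114 ± 35.6 and 80.7 ± 22.3 CPM (SD, n = 3 each). The Insig1 log2 fold change of 0.50 was 0.24 without stressed mouse 13.

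Of 20 genes of triglyceride synthesis and lipid droplets, 10 were above 0 and 10 below, with a median of 0.0043 and 2 at an unadjusted p under 0.05, both higher. G0s2, an inhibitor of triglyceride lipase, had a log2 fold change of 0.61, Acsl4, an acyl-CoA synthetase, 0.23, and Dgat1, a triglyceride synthase, -0.17. The G0s2 value was 0.20 with the adipocyte score and 0.93 without resting mouse 17. Me1 is also a known target of the oxidative stress factor NRF2. Of 20 NRF2 targets 17 were above 0 with a median of 0.062, and 3 had an unadjusted p under 0.05: Abcc2 (0.54), Gsr (0.15) and, lower, the cystine transporter Slc7a11 (-0.99, at 0.920 ± 0.290 CPM in stressed colon and 1.84 ± 0.373 CPM in resting colon; SD, n = 3 each). Of 7 tested thyroid hormone-related genes 5 were above 0 with a median of 0.076, and 0 had an unadjusted p under 0.05. Klf9, Dio2 and Thra had 0.14, 0.34 and 0.077, values that single mice moved: Klf9 had 0.064 without stressed mouse 10 and 0.22 without stressed mouse 11, Dio2 had 0.040 without resting mouse 15 and 0.64 without resting mouse 19, and Thra had 0.0050 without resting mouse 15. With the adipocyte score as a covariate Dio2 had 0.043.

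In mm10 (GENCODE M21), Srebf1 lies on chromosome 11 from 60199089 to 60222581, Acaca from 84129672 to 84401651, Acly from 100476353 to 100528000 and Fasn from 120805846 to 120824547. Me1 (ENSMUSG00000032418) lies on chromosome 9 from 86581371 to 86695953. Scd1 (ENSMUSG00000037071) lies on chromosome 19 from 44394455 to 44407879 and Scd2 (ENSMUSG00000025203) from 44293674 to 44306864. Thrsp lies on chromosome 7 from 97412938 to 97417730, Pnpla3 on chromosome 15 from 84167837 to 84187236 and Elovl6 on chromosome 3 from 129532355 to 129638495. All 10 are protein-coding.

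Some members share sequence with other genes, which bears on how reads could have been assigned. Of the 50-base stretches of the longest Me1 transcript, 32.8% also occur exactly in another gene's transcripts, mainly those of Gm7049 and Gm48795. For Acaca the share was 52.6%, all with Gm5182. It was 4.66% for Scd1 and 4.01% for Scd2, largely among the Scd family, and 0 for Fasn and Acly. Gm7329, which shares 4.22% of the Me1 stretches, had 3 counts over the 6 libraries. The counted genes held no entry named Gm7049, Gm48795 or Gm5182, so counts of these main partners could not be looked at. Exons of Srebf1 overlap those of Rai1 on the opposite strand over 109 bases. With the strand setting and the handling of reads with several placements not given in the sources used here, their part in the values was not tested.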

How the data were processed

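Colon RNA was measured in 6 mice, 3 stressed and 3 resting, with 1 library per mouse. The authors deposited raw counts, whole numbers for each Ensembl gene identifier. Per the labels' protocols, libraries were poly(A)-selected with a stranded kit; reads were processed with fastp and HISAT2 on mm10, per the submitters' processing notes, with the counter, annotation and strand setting not given in the sources used here. Symbols came from a table of Ensembl identifiers (42462 of 43432 matched; the other 970 held 0.0988% to 0.105% of counts).

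Genes were kept by filterByExpr (minimum count 10, minimum total 15) and tested across all 16119 genes with edgeR 4.0.16 in R 4.3.3 (quasi-likelihood F test, TMM factors of 0.985 to 1.02, two-sided, Benjamini-Hochberg adjusted p under 0.05). Log2 fold changes, their SE and 95% intervals are from that fit, and CPM values are TMM-scaled. DESeq2 1.42.0 and limma-voom (limma 3.58.1) were alternatives. The test was checked on simulated data. Labels name a separate mouse per library, and no 2 libraries looked like copies (chi-square per gene 7.78 to 18.2). Counting error alone limits genes with few counts.

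The members, the lists and the naming rule (all members; in each pathway list the 3 genes with the smallest p; the 3 genes most correlated with Me1 and with Scd1, at 5 CPM or more) were chosen with earlier results of these data known. Levels per kb use the union of GENCODE M21 exons.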

Additional observations from a re-analysis of the deposited data

How the results depend on the processing

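The number of genes past the edgeR threshold was 5, against 151 without the filter on low counts, 56 with DESeq2, 3 with limma-voom, 3 with the adipocyte score as a covariate and 1 to 14 with a mouse left out (1 without stressed mouse 10 or resting mouse 15, and 14 without stressed mouse 11). Of the members 1 passed, against 5 without the filter, 4 with DESeq2, 0 with limma-voom, 0 with library totals, 0 with the adipocyte score, and 0 to 1 with a mouse left out. At these settings the Me1 log2 fold change stayed between 0.53 and 0.64. The median log2 fold change of the members, 0.32, was 0.46 with the adipocyte score and 0.24 to 0.46 with a mouse left out, highest without resting mouse 19. The groups did not overlap for 6 members, and for 5 with library totals. Between 8 and 10 members had a positive log2 fold change. With a mouse left out, the Acly log2 fold change ranged from -0.017 (without stressed mouse 13) to 0.16 and that of Elovl6 from -0.056 (without resting mouse 17) to 0.11. Elovl6 also turned to -0.028 without stressed mouse 13 and to -0.0038 with library totals, and Thra to -0.0028 with the adipocyte score. The cause of these moves was not tested. No paired analysis was possible because the stressed and resting mice share no number. Depth limits Pnpla3 most, with 21 to 72 counts a library. The edgeR p-values set each group difference against the spread between 3 mice a group, moderated with the spread of the other tested genes.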
